A study of Mus musculus with 13 samples.

Results

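The primitive endoderm regulators studied here are 7 mouse genes, Gata4, Gata6, Sox17, Sox7, Foxa2, Pdgfra and Dab2, out of 21887 protein-coding genes on the placed chromosomes. They were chosen by name, and each was described by the peaks that fell in its gene body plus 20 kb on each side, in mm10 coordinates. Chromatin immunoprecipitation followed by sequencing (ChIP-seq) had been used to map H3K27ac, an acetylation of histone H3 found at active promoters and enhancers, and the co-repressors NCoR and SMRT, which bind and activate the histone deacetylase HDAC3. The 12 peak lists came from 12 libraries, each the only library of its group, and an input library from ESCs was not analysed here. No value below therefore has a replicate error, and no test between conditions was made within a day.

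The OSKM cultures were mouse embryonic fibroblasts (MEFs) of strain C57BL/6J-OG2 given the factor cocktail OSKM by virus (Oct4, Sox2, Klf4 and Myc, which reprogram fibroblasts towards pluripotency). H3K27ac was mapped in them on days 5, 9 and 13, with either HDAC3-YF, a mutant HDAC3 without deacetylase activity, or a FLAG control added to the cocktail. NCoR and SMRT were mapped at day 9 in OSKM cultures without either addition in their labels. H3K27ac was also mapped in embryonic stem cells (ESCs) of strain C57BL/6J and in MEFs of strain C57BL/6J-OG2 that received no factors, and NCoR and SMRT in ESCs. The ESCs were kept in medium with LIF and the inhibitors CHIR99021 and PD0325901. The OSKM cultures, labelled as presumed intermediates, were grown with LIF in medium with serum or with serum replacement, and which of these media each library had is not given. In bulk cultures a peak carried by more cells and a stronger mark in each cell cannot be told apart.

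Primitive endoderm is the layer of the blastocyst that sits beside the pluripotent epiblast and later forms the yolk sac. FGF4 from the epiblast acts through FGF receptors and the MEK and ERK kinases to favour the primitive endoderm fate, and PD0325901 blocks MEK. GATA6 is the earliest of the regulators, it represses epiblast genes such as Nanog and is repressed by NANOG in turn, and PDGFRA, SOX17, GATA4 and SOX7 are switched on in succession after it.

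The lists differed in length. ESCs had 25499 H3K27ac peaks, MEFs 26591, and the 6 OSKM lists between 14251 and 16944, while the co-repressor lists held between 3687 and 5179 peaks. Every peak was deposited as an interval of exactly 200 bp, so a number of peaks says nothing about their width, and how many reads lay behind each list is unknown. The labelled ESCs and MEFs were checked by their markers. The windows of 6 ESC markers (Nanog, Esrrb, Tfcp2l1, Klf2, Dppa5a and Zfp42) held 45 peaks in ESCs and 3 in MEFs, and those of 6 fibroblast markers (Col1a1, Col1a2, Thy1, Twist2, Prrx1 and Fbn1) held 2 in ESCs and 36 in MEFs.

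Over all 8 H3K27ac lists the 7 windows held 25 peaks, and 17 of the 56 combinations of gene and list had any. ESCs had 6 peaks at 3 of the 7 genes, against a background of 68.0% of all protein-coding genes with at least 1 peak in the window, and MEFs had 8 peaks at 5 of the 7, against 68.6%. In the reprogramming cultures 1 of the 7 genes had a peak at day 5 with HDAC3-YF (61.5% of all genes) and 1 with FLAG (61.5%). At day 9 it was again 1 with HDAC3-YF (61.2%) and 1 with FLAG (62.3%). At day 13 there were 4 of the 7 with HDAC3-YF (63.3%) and 1 with FLAG (62.5%). The median number of peaks over the 7 genes was 0 in ESCs and 1 in MEFs, 1 with HDAC3-YF at day 13 and 0 in the other 5 OSKM lists, where the median over all genes was 1 in each of the 8 lists. The windows of the 7 genes were between 44.1 and 180.9 kb long. Among the 16009 genes with windows in that range, the share with a peak was higher still, 75.2% in ESCs and 76.1% in MEFs. In the cultures it was 68.5% with HDAC3-YF and 68.6% with FLAG on day 5, 68.7% and 69.7% on day 9, and 70.3% and 70.0% on day 13. These shares include peaks in neighbouring genes. Of the 7 genes only Gata4 and Dab2 had another protein-coding gene in the window. Genes with equally few neighbours were not counted, so the part of gene density in the low counts was not tested.

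**Figure D1:**
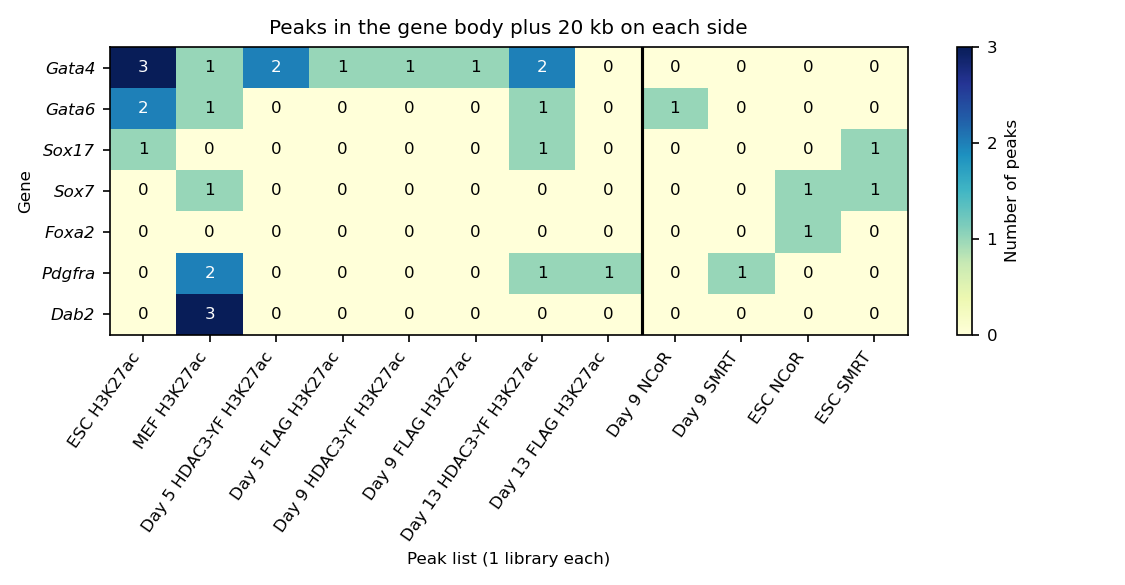
Number of peaks in the body plus 20 kb on each side of each of the 7 genes (rows) in each of the 12 peak lists (columns, 1 library each); colour repeats the number. Gata4, Gata6 and Sox17 have peaks in ESCs and at day 13 with HDAC3-YF, and Gata4 and Gata6 also have 1 each in MEFs. Sox7, Pdgfra and Dab2 have peaks in MEFs and none in ESCs, and Pdgfra has 1 in each arm at day 13. Foxa2 has no H3K27ac peak.

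**Figure D2:**
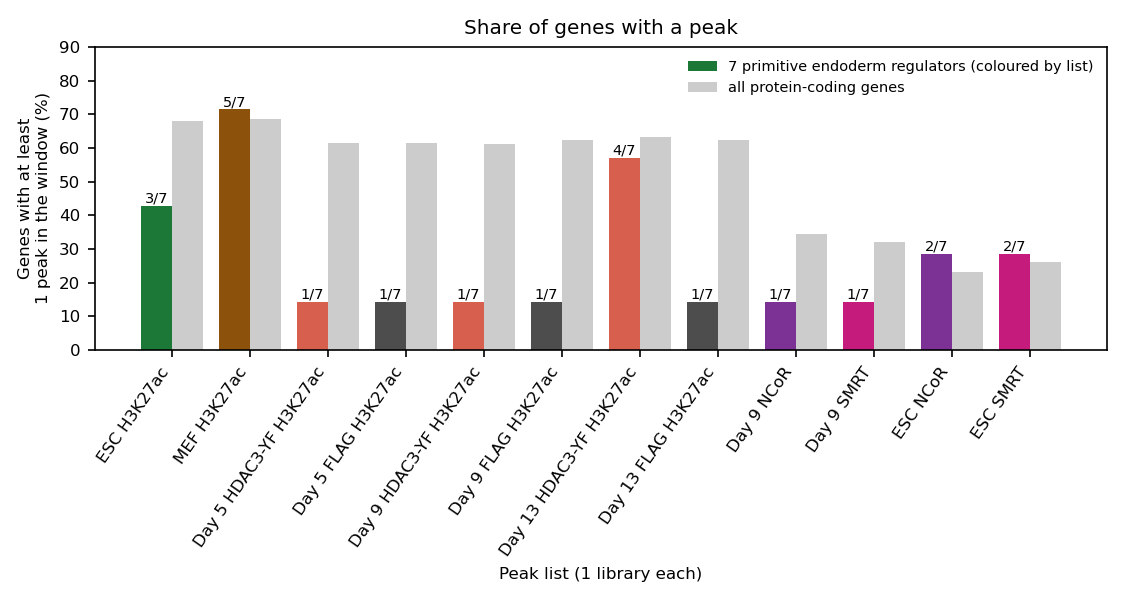
Percentage of genes with at least 1 peak in the window, for the 7 primitive endoderm regulators (coloured bars, with the number of genes above) and for all 21887 protein-coding genes (grey bars), per list. The regulators stand at 1 of 7 in 5 of the 6 OSKM H3K27ac lists, where all genes stand at 61.2 to 62.5%, and at 4 of 7 at day 13 with HDAC3-YF.

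The 7 genes differed in whether ESCs or MEFs had more peaks in their windows. Among the transcription factor genes, Gata4 had 3 peaks in ESCs and 1 in MEFs, Gata6 had 2 and 1, and Sox17 had 1 and 0. Sox7, which encodes another SOX factor, had 0 in ESCs and 1 in MEFs. Pdgfra, the receptor for PDGF that marks early primitive endoderm and also mesenchymal cells, had 0 in ESCs and 2 in MEFs. Dab2, an endocytic adaptor needed for visceral endoderm, had 0 in ESCs and 3 in MEFs, and Foxa2, a forkhead factor of endoderm, had 0 in both. Thus 3 genes were higher in ESCs, where 27.8% of all genes were (30.5% of those with windows in the same length range), and 3 were lower, where 22.7% were (24.0%). The median difference was 0, as it was over all genes. The summed difference of -2 peaks did not keep its sign, since with the 14251 top-scoring peaks of each list it was 1. The split by gene shrank too, to 1 gene higher in ESCs and 1 lower with those peaks. With the upper 50% of each list by score 0 genes were higher and 1 was lower.

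**Figure D3:**
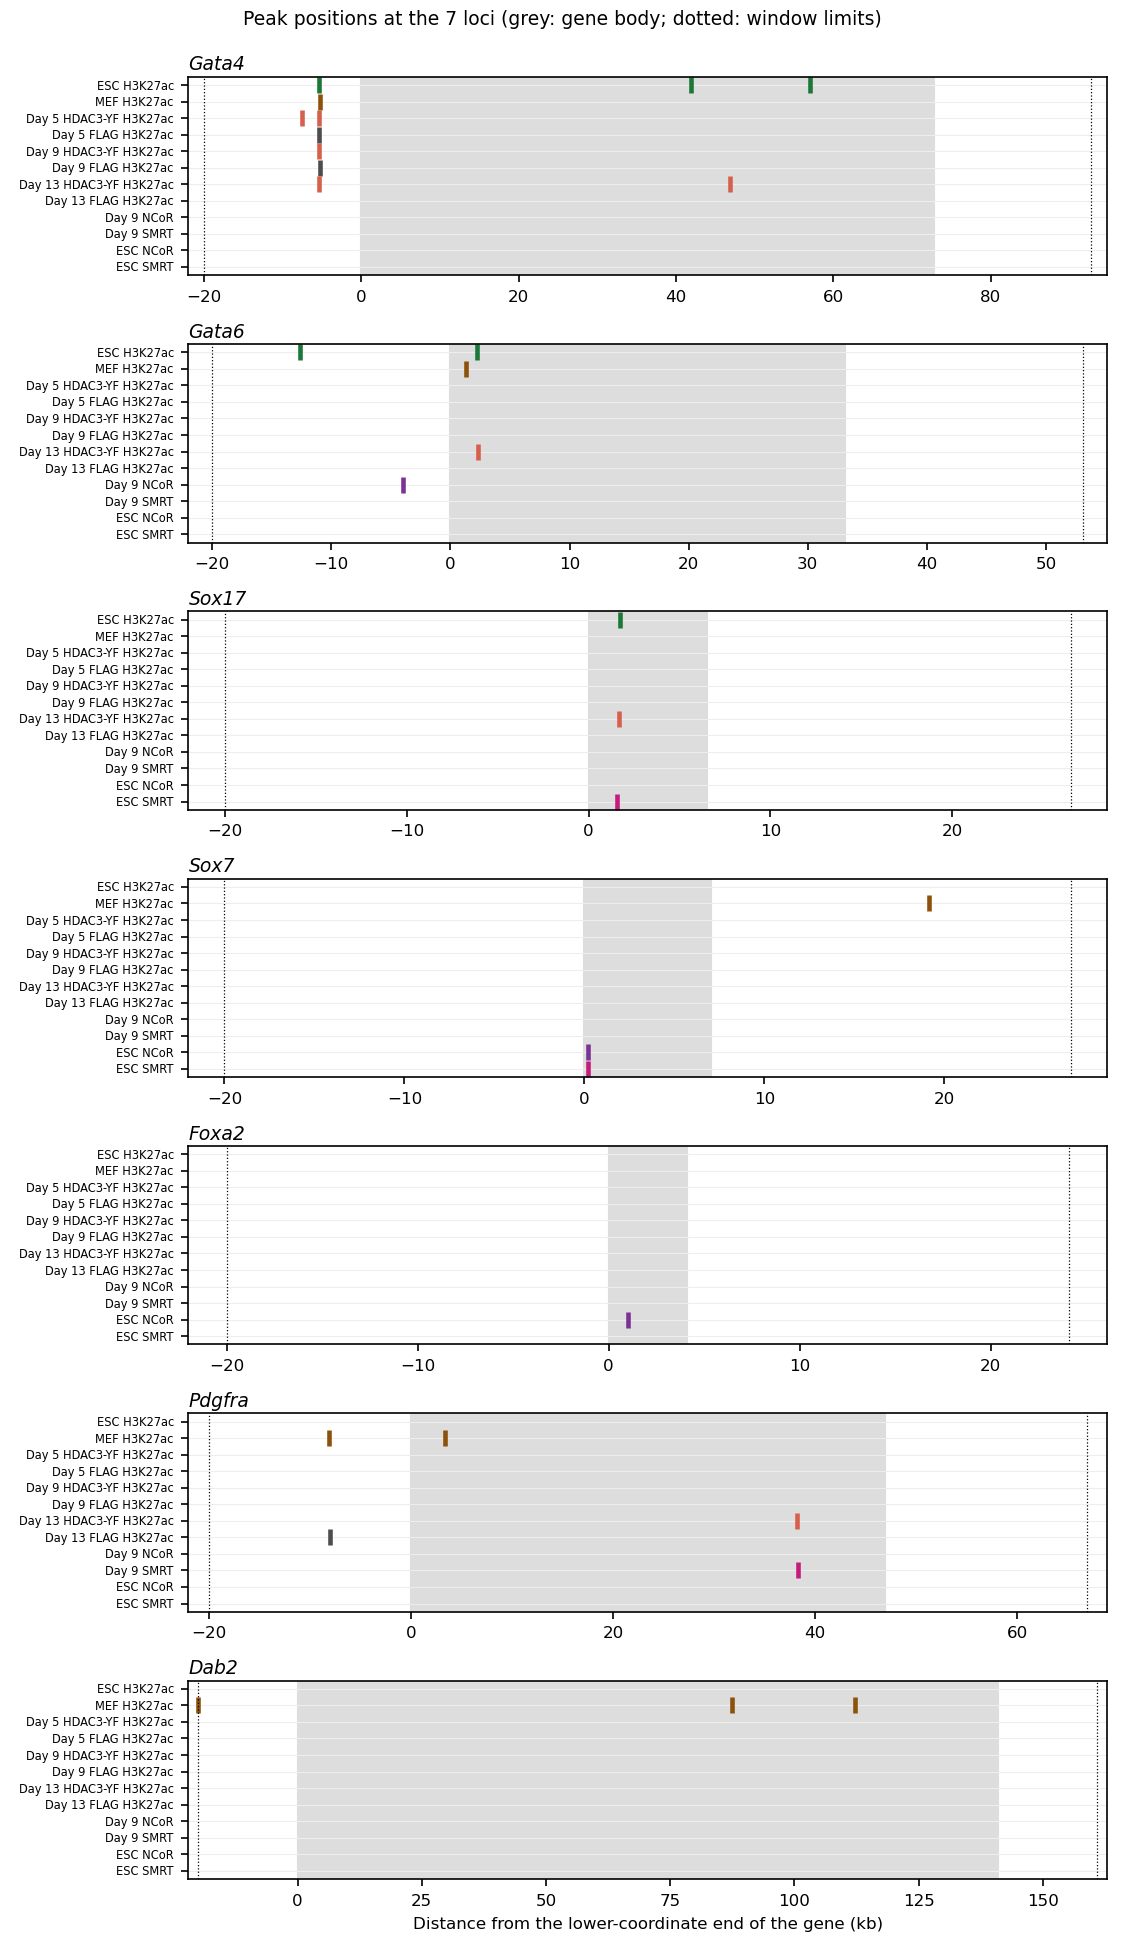
Position of every peak at the 7 loci, in kb from the lower-coordinate end of each gene, with the 12 lists as rows; grey marks the gene body and dotted lines the window limits. The Gata4 peaks of MEFs and of the day 5 and day 9 cultures all lie below the gene, and the day 13 HDAC3-YF peaks of Gata6 and Sox17 lie at the position of an ESC peak.

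Gata4 (chr14:63198914-63271712) had the most peaks, 11 over the 8 lists, and most of them lay in a neighbouring gene. A site at chr14:63193415-63193757, about 5 kb below the lower end of Gata4, carried a peak in ESCs, in MEFs, in both arms at day 5 and day 9 and with HDAC3-YF at day 13, that is in 7 lists, with centres within 143 bp of each other. It lay inside the body of Neil2, a DNA repair glycosylase gene that ends 4.76 kb from Gata4, and the centres were 497 to 640 bp from the upper end of Neil2. The deposited score of the site, the authors' own measure, whose scale is not given and which is read here only as a rank within a list, was 32.0 in ESCs (48.0% of the list lower) and 13.3 in MEFs (26.7%). It was 25.0 (52.7%) with HDAC3-YF and 8.73 (14.8%) with FLAG at day 5, 19.8 (43.9%) and 12.2 (30.2%) at day 9, and 13.9 (43.7%) with HDAC3-YF at day 13. The day 13 FLAG list had no peak there, and its nearest to Gata4 lay 49.6 kb from the gene, in Fdft1. The site was thus listed in both arms at days 5 and 9 and with HDAC3-YF alone at day 13. Day 5 HDAC3-YF cultures had a further peak inside Neil2 at chr14:63191215-63191414. Apart from these 8 peaks in Neil2, Gata4 had a peak at chr14:63240777-63240976 and another at chr14:63255877-63256076 in ESCs, both inside the gene, and a peak at chr14:63245635-63245834 in day 13 HDAC3-YF cultures, also inside the gene and overlapping neither ESC peak. MEFs and all other cultures had none in the body. The scores of these peaks inside Gata4 were 33.2 and 11.0 in ESCs and 8.47 at day 13, with 48.6%, 21.9% and 19.3% of the list lower. For Gata4 the genes with the most similar numbers over the 8 lists were Mapkapk5, Mllt1 and Myo1g, the 3 genes that differed by a summed 1 peak, in each case at day 13 with FLAG.

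Without the peaks inside Neil2, no peak lay at any of the 7 loci in either arm at day 5 or day 9. The share of all genes without a peak once other gene bodies are left out was not counted, so this has no background. The other 17 peaks comprised those in ESCs, those in MEFs, 4 at day 13 with HDAC3-YF and 1 at day 13 with FLAG. Sox7 and Dab2, 2 of the 7 genes, had a peak in ESCs or MEFs, in both cases in MEFs, and none in the 6 OSKM lists, and 5.67% of all genes were in that class (5.7% of those in the length range). Sox7, Foxa2 and Dab2 had no peak in any OSKM list, as had 29.0% of all genes (21.8% of those in the length range).

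Gata6 (chr18:11052510-11085636) had ESC peaks at chr18:11039820-11040019, outside the gene, and at chr18:11054670-11054869, 2.26 kb inside its lower end, with scores of 28.8 and 20.1. The MEF peak at chr18:11053685-11053884 lay nearer to that end, at 1.27 kb, and did not overlap the ESC peaks, with a score of 32.1. The day 13 HDAC3-YF peak, chr18:11054721-11054920, overlapped the second ESC peak by 149 bp, with 51 bp between the centres. It was near the bottom of its list, with a deposited score of 6.84 where the lowest of the list was 6.72, and 1.71% of the list scored lower. No other OSKM list had a peak at Gata6, and the nearest in them lay between 106 and 326 kb from the gene.

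Sox17 (chr1:4490928-4497426) had its ESC peak at chr1:4492536-4492735, inside the gene, with a score of 13.1 (27.2% of the list lower). The day 13 HDAC3-YF peak, chr1:4492506-4492705, overlapped it by 170 bp, with the centres 30 bp apart and a score of 11.7 (36.8% of the list lower). MEFs and the other 5 OSKM lists had no peak at Sox17.

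Pdgfra (chr5:75151322-75198206) carried the peak with the highest rank in its list among the 25. It was a MEF peak at chr5:75154615-75154814, inside the gene and 2463 bp downstream of the listed transcription start, with a score of 86.4 and 63.2% of the MEF list lower. A second MEF peak lay at chr5:75143165-75143364, below the gene, inside the long non-coding RNA gene Gm19583, with a score of 10.9. HDAC3-YF cultures of day 13 had a peak at chr5:75189460-75189659, inside Pdgfra, which overlapped no ESC or MEF peak. The day 13 FLAG peak lay elsewhere, at chr5:75143209-75143408, and overlapped the second MEF peak by 156 bp. ESCs had no peak nearer than 65.6 kb. The count for Pdgfra was thus 1 with HDAC3-YF and 1 with FLAG at day 13, at different positions.

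Dab2 (chr15:6299788-6440715) had peaks in MEFs only among the 8 lists. The peak at chr15:6387106-6387305 lay 457 bp downstream of the second of the listed transcription starts of the gene, and a lower-scoring peak at chr15:6411856-6412055 lay further inside (scores 28.1 and 7.17). The third, at chr15:6279606-6279805, reached into the window by 18 bp. That peak, upstream of the gene, was the nearest MEF peak to the first listed start. Shown are 300 bases of each (250 before and 50 after the start, from RefSeq, GRCm38.p6, plus strand), with GATA cores in capitals, because a MEF peak stood close to the second start and not to the first.

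Dab2 first start, chr15:6299539-6299838: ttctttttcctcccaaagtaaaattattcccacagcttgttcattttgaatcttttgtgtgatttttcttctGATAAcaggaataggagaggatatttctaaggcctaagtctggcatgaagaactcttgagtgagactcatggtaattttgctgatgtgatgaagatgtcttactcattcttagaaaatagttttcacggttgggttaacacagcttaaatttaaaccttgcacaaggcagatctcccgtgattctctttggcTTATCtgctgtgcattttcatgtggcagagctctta

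Dab2 second start, chr15:6386498-6386797: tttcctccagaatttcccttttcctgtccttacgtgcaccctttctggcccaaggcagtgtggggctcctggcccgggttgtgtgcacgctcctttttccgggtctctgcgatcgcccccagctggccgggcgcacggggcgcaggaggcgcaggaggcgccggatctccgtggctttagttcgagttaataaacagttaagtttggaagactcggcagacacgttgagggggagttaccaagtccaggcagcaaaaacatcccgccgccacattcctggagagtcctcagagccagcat

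The stretch at the first start held 2 CpG dinucleotides, with fewer in 14.1% of all promoters of the table, and 2 GATA cores (GATAA or, on the other strand, TTATC). The stretch at the second start held 19 CpG dinucleotides, with fewer in 72.0%, and no GATA core. A GATA core was present in 25.4% of the 32817 promoters of that length.

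For Pdgfra and Foxa2 the table also listed promoters, and these are shown for comparison. Pdgfra is shown because its peak with the highest score rank, in MEFs, lay downstream of the start. Foxa2, on the minus strand, is shown for the start nearest to its NCoR peak. Gata4, Gata6, Sox17 and Sox7 were not matched in the table.

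Pdgfra, chr5:75152001-75152300, plus strand: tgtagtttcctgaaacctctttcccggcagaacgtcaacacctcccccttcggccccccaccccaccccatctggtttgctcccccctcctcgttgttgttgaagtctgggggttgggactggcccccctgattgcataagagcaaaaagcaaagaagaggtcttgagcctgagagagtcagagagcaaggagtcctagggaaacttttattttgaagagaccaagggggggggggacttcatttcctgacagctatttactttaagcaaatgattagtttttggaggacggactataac

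Foxa2, chr2:148045415-148045714, minus strand: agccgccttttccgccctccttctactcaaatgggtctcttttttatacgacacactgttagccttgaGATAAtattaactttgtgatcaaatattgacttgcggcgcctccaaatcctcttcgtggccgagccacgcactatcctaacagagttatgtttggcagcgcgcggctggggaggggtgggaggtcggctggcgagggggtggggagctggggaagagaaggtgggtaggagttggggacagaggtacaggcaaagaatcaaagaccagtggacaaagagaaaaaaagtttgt

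The Pdgfra stretch held 5 CpG dinucleotides and the Foxa2 stretch 13, against a median of 7 over all promoters, and the Foxa2 stretch had 1 GATA core. None of the 6 listed promoters of Foxa2, Pdgfra and Dab2 held the MYC E-box CACGTG (7.15% of all promoters), the forkhead motif TGTTTAC (3.65%), the SOX core ACAAT (31.0%) or the octamer part ATGCAAA (4.63%), on either strand. These are matches of letters and not measured binding.

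Sox7 (chr14:63943706-63950732) had 1 H3K27ac peak, in MEFs, at chr14:63962754-63962953, centred 12.1 kb above its upper end, with a score of 17.9. The nearest H3K27ac peak was 83.1 kb away in ESCs and 83.0 to 83.3 kb away in the OSKM lists, in each of them inside Pinx1. Foxa2 (chr2:148042877-148046969) had no H3K27ac peak in its window in any of the 8 lists, as had 23.3% of all genes (16.1% of those in the length range). The nearest H3K27ac peak to Foxa2 was 626 kb away in ESCs, 75.7 kb in MEFs and 33.0 kb at day 5 with HDAC3-YF.

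Between HDAC3-YF and FLAG cultures the 7 genes differed mainly at day 13. They held 2 peaks with HDAC3-YF and 1 with FLAG on day 5, 1 and 1 on day 9, and 5 and 1 on day 13. On day 5 Gata4 was higher with HDAC3-YF and no gene was lower, where 14.2% of all genes were higher and 11.0% lower. The Gata4 difference was a peak inside Neil2. At day 9 no gene differed, where 10.7% of all genes were higher and 15.0% lower. Of the genes in the length range 14.8% were higher and 11.7% lower on day 5, and 11.6% and 15.8% on day 9.

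At day 13 Gata4 had 2 peaks with HDAC3-YF and 0 with FLAG, Gata6 had 1 and 0, and Sox17 had 1 and 0. No gene was lower, and the other 4 had equal numbers. Of all genes 15.5% were higher and 16.4% lower at that day, and of those in the length range 16.4% and 17.3%. The median difference over the 7 genes was 0, as it was over all genes. None of these peaks ranked in the upper part of its list, as the plot of score ranks shows. The HDAC3-YF peaks scored between 6.84 and 13.9 and had between 1.71% and 43.7% of their list below them, and the FLAG peak at Pdgfra scored 7.41, with 9.06% below. With only the upper 50% of each list by score, no peak of either arm remained at the 7 loci at day 13.

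**Figure D4:**
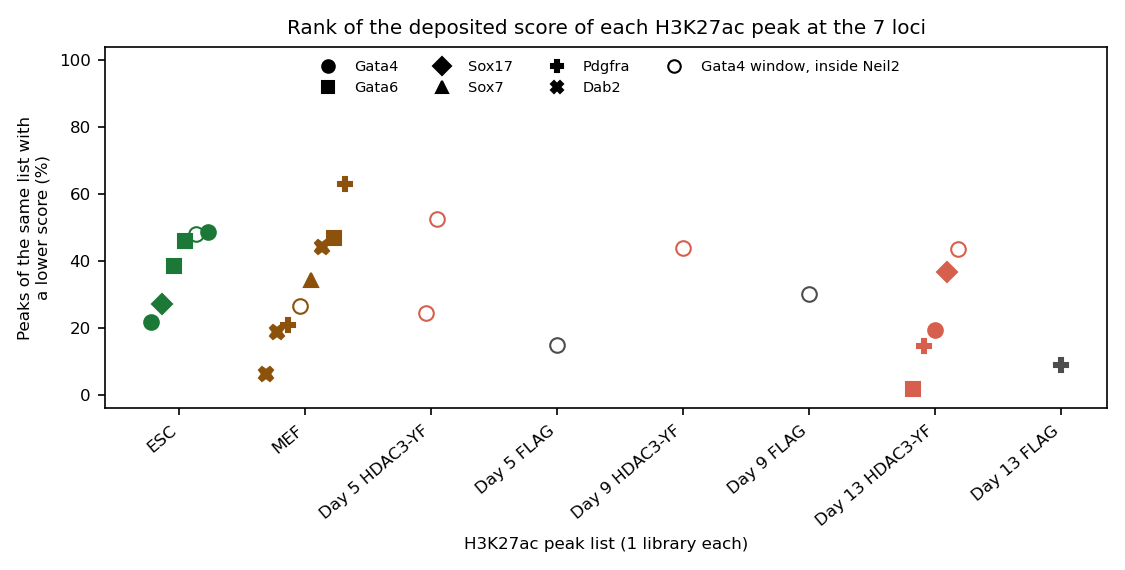
Rank of each H3K27ac peak at the 7 loci within its own list, as the percentage of peaks of that list with a lower deposited score; the symbol gives the gene, open circles are peaks of the Gata4 window that lie inside Neil2, and each column is 1 library. All but 2 of the 25 peaks lie below 50%, and the day 13 HDAC3-YF peaks span 1.71 to 43.7%.

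Over all 8 lists 23 of the 25 peaks had at most 50% of their list below them, and none reached the ceiling of 200 of the score. Day 13 lists also had fewer peaks at the ceiling, 2.11% with HDAC3-YF and 1.67% with FLAG, than the day 5 and day 9 lists, with 9.06 to 11.9%.

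By position, the 5 day 13 HDAC3-YF peaks overlapped no day 13 FLAG peak, as did 36.2% of the whole list, and the FLAG peak overlapped no HDAC3-YF peak, as did 40.9% of its list. Those at Gata6 and Sox17 overlapped an ESC peak alone, the peak in Neil2 overlapped an ESC and a MEF peak, and those inside Gata4 and Pdgfra overlapped neither. The FLAG peak at Pdgfra overlapped a MEF peak alone. Over the genome 5154 of the 14251 day 13 HDAC3-YF peaks overlapped no FLAG peak of that day, and of these 17.5% overlapped an ESC peak alone, 11.3% a MEF peak alone, 19.2% both and 52.1% neither. Of the 15394 FLAG peaks 6297 overlapped no HDAC3-YF peak, and of these 8.77% overlapped an ESC peak alone and 21.9% a MEF peak alone.

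Markers of other cell types were counted beside the day 13 difference. The windows of the 6 ESC markers held 4 peaks with HDAC3-YF and 3 with FLAG, those of the 6 fibroblast markers 5 and 6. Of the others, 5 trophoblast markers held 1 and 1, 5 endothelial markers 4 and 4, 4 cardiac mesoderm markers 1 and 3, and 5 gut endoderm and liver markers 1 and 0. That single peak was at Foxa1, a forkhead factor, while the albumin gene Alb and the fetal liver gene Afp had 0 in all 8 lists. Of this last list Hnf4a and Afp are also made by visceral endoderm. The part of any of these in the difference at the 7 genes was not tested.

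Merged where they lay within 1 kb of each other, the H3K27ac peaks of the 8 lists formed 15 sites. Of these 11 were present in a single list, 5 in MEFs and 3 in ESCs among them, and 4 in several lists. The shared sites were those in Neil2, near the lower end of Gata6, inside Sox17 and below Pdgfra.

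NCoR and SMRT had 1 or 2 peaks per list at the 7 genes. A peak in the list of 1 co-repressor alone is not shown to lack the other, since the lists may not be separate calls. The genes with co-repressor peaks at day 9 and in ESCs did not overlap. With so few peaks, and only 23.2 to 34.4% of all genes holding one per list, this is not read as a difference. The share of all genes that differ in this way was not counted. At day 9 NCoR had 1 peak, at Gata6 (34.4% of all genes had at least 1 in the window, 39.3% of those in the length range), and SMRT had 1, at Pdgfra (31.9% and 36.6%). In ESCs NCoR had a peak at Sox7 and another at Foxa2 (23.2% of all genes and 26.0% of those in the length range), and SMRT had a peak at Sox17 and another at Sox7 (26.1% and 29.2%). Over the 4 lists 5 of the 7 genes had a co-repressor peak, where 48.4% of all genes and 54.2% of those in the length range had any. Gata4 and Dab2 had none, and the nearest lay between 272 and 335 kb from Gata4 and between 267 and 725 kb from Dab2.

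The day 9 NCoR peak of Gata6, chr18:11048441-11048640, ended 3.87 kb below the lower end of the gene, inside the antisense long non-coding RNA gene Gata6os, and no H3K27ac peak of any list overlapped it. The day 9 SMRT peak of Pdgfra, chr5:75189525-75189724, overlapped by 135 bp the H3K27ac peak listed with HDAC3-YF at day 13. The 2 libraries were from different days, and no H3K27ac peak of either arm lay there at day 9.

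In ESCs the SMRT peak of Sox17, chr1:4492418-4492617, overlapped the ESC H3K27ac peak inside that gene by 82 bp. The Sox7 site, chr14:63943813-63944012, was the same interval in both lists and lay 206 bp inside the lower end of the gene, without H3K27ac in the window in ESCs. The NCoR peak of Foxa2, chr2:148043775-148043974, lay inside the gene, 1590 bp downstream of the nearest listed start, again without H3K27ac in the window. So of the 4 co-repressor peaks in ESCs, the SMRT peak of Sox17 was the only one with an overlapping H3K27ac peak in ESCs.

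Genes of the surrounding pathway were taken from 5 lists and counted in the same windows. As background, 27.8% of all genes were higher in ESCs than in MEFs and 22.7% lower. With HDAC3-YF against FLAG 14.2% were higher and 11.0% lower on day 5, 10.7% and 15.0% on day 9, and 15.5% and 16.4% on day 13. Of 11 genes of FGF and MAPK signalling, 6 were higher in ESCs than in MEFs by at least 1 peak and 2 lower, with a median difference of 1 peak. Fgf4, the ligand made by the epiblast, had 5 in ESCs and 0 in MEFs, and the receptor gene Fgfr2 had 1 and 8. The ETS factor gene Etv5, a target of the pathway, had 9 and 4. HDAC3-YF cultures had more peaks than FLAG cultures at 5 genes on day 5 and fewer at 1. On day 9 they had more at 4 and fewer at 3, and on day 13 more at 1 and fewer at 2. Etv5 had 3 with HDAC3-YF and 1 with FLAG at day 5, and 4 and 3 at day 9. The adaptor gene Grb2 had 3 and 2, then 4 and 3, while the ERK phosphatase gene Dusp6 had 1 and 2 at both days.

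Of 10 epiblast factors 9 had more peaks in ESCs and 1 fewer, and the list held 54 in ESCs and 14 in MEFs. The orphan receptor gene Esrrb had 11 in ESCs and 0 in MEFs, and Klf2 had 9 and 2. Fgf4, which is on both lists, and Tdgf1 each had 5 and 0. At day 13 HDAC3-YF cultures had more peaks at 5 of the 10 and fewer at 1, and the list held 17 with HDAC3-YF and 13 with FLAG. No epiblast gene was higher and 2 were lower on day 5, and 2 were higher and 2 lower on day 9. Tdgf1, a co-receptor for Nodal, had 1 and 0 on days 9 and 13, and Sall4 had 3 and 1 at day 9. Pou5f1 had 5 and 7 on day 5, 5 and 8 on day 9, and 6 and 5 on day 13. Pou5f1, Sox2 and Klf4 were introduced, so that peaks over their exons can come from introduced copies.

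Of 10 basement membrane genes that extra-embryonic endoderm secretes and fibroblasts express too, 3 had more peaks in ESCs and 4 fewer, with 33 peaks in ESCs and 52 in MEFs. The type IV collagen genes Col4a2 and Col4a1 lie next to each other and share part of their windows. Col4a2 had 1 in ESCs and 11 in MEFs, and Col4a1 had 1 and 6. The perlecan gene Hspg2 had 6 and 10. At day 13 the list held 18 peaks with HDAC3-YF and 27 with FLAG, with 3 genes higher and 5 lower. On day 5 there was 1 higher and 2 lower, and on day 9 1 and 3. At day 13 Col4a2 had 1 with HDAC3-YF and 5 with FLAG, Col4a1 had 1 and 3, and Hspg2 had 6 and 8.

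Of 18 genes of visceral and parietal endoderm, the later products of primitive endoderm, 4 had more peaks in ESCs and 8 fewer. At day 13 HDAC3-YF cultures had more peaks at 6 and fewer at 1. At least 1 peak lay at 10 genes with HDAC3-YF and at 6 with FLAG (17 peaks and 15), where 63.3% and 62.5% of all genes had any. On day 5 there was 1 higher and 4 lower, and on day 9 2 and 6. Amn, which encodes a subunit of the visceral endoderm receptor for which Cubn encodes the other, had 0 with HDAC3-YF and 1 with FLAG on days 5 and 9, and 3 and 0 on day 13. Cubn had 5 with HDAC3-YF and 1 with FLAG on day 5, 6 and 5 on day 9, and 1 and 7 on day 13, in a window of 255.5 kb. The BMP and Nodal antagonist gene Cer1 had 0 and 1 at day 5. Plat and Pth1r, markers of parietal endoderm, each had 0 in ESCs and 3 in MEFs.

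Of 10 family members of the regulators, 4 had more peaks in ESCs and 4 fewer, and the list held 8 peaks with HDAC3-YF and 7 with FLAG at day 13, with 3 genes higher and 2 lower. The blood and endothelial factor gene Gata2 had 1 in ESCs and 4 in MEFs, and Gata1 had 3 and 1. Pdgfrb, the paralog of Pdgfra, had 1 in ESCs and 3 in MEFs and, like Pdgfra up to day 9, none in the cultures. Foxa1 had 1 with HDAC3-YF and 0 with FLAG at day 13, and Foxa3 had 2 and 3 on days 5 and 9. Dab1 had 1 and 0 at day 13, in a window of 1165.3 kb. A peak in any of the 4 co-repressor lists lay at 5 of the 11 FGF and MAPK genes, 7 of the 10 epiblast factors, 4 of the 10 basement membrane genes, 6 of the 18 endoderm genes and 4 of the 10 family members. Over all genes the share was 48.4%.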

How the data were processed

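ChIP-seq peak lists of 12 libraries were used, grouped by the titles in the labels, with 1 library per group. Per the submitters' processing notes, the authors used Bowtie2 2.2.0, MACS 1.4 and the build mm10; settings are not given in the sources used here. Each deposited list gives intervals of 200 bp with the authors' score. The H3K27ac score reaches a ceiling of 200. The NCoR and SMRT score is signed, so it is not a peak height, and was not used for ranks. At the Sox7 site the NCoR and SMRT lists of ESCs gave the same interval with the same score. Whether NCoR and SMRT peaks were called separately is not given, so an interval in both lists may not be 2 separate calls. NCoR scores ran from -0.979 to 3.31 at day 9 and from -0.990 to 2.90 in ESCs. SMRT scores ran from -2.85 to 0.991 and from -3.24 to 0.998. The NCoR peaks of Gata6 (2.23) and Foxa2 (1.01) scored above the SMRT range of the same cells. The SMRT peaks of Pdgfra (-1.46) and Sox17 (-1.44) scored below the NCoR range. Whether a score cut set which list holds a peak was not tested.

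Intervals overlapping a gene body plus 20 kb on each side by at least 1 bp were counted with Python 3.11.15 and pandas 2.3.3. Genes came from RefSeq GRCm38.p6, the assembly that mm10 coordinates refer to (21887 protein-coding genes; all 7 regulators and all listed genes matched by symbol). The gene table gives no strand, so positions are given from the lower- or upper-coordinate end; starts and strands came from the RefSeq promoter table, which listed 3 of the 7. Counting was tested on simulated intervals.

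The genes and lists were chosen with earlier results of these data known. All 7 regulators are named; from each pathway list up to 3 genes with the largest ESC to MEF difference and up to 3 with the largest HDAC3-YF to FLAG difference over the 3 days are named. Likeness was taken for genes with at least 10 H3K27ac peaks. With 1 library per group nothing was tested between conditions within a day; shares of all genes are the background. Alternatives were flanks of 5 and 50 kb, the upper 50% of each H3K27ac list, 14251 top peaks per list, 50% of the interval inside the window, merging within 1 kb, leaving out other gene bodies, and sites with both co-repressors.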

Additional observations from a re-analysis of the deposited data

How the results depend on the processing

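The labels give no replicate numbers, so no fit with a replicate block was made. The libraries of the arms can be paired by day, which was done after seeing the data. The paired differences of HDAC3-YF minus FLAG were 1 peak at day 5, 0 at day 9 and 4 at day 13. An exact two-sided sign-flip permutation test of their sum gave p = 0.5, where 3 pairs allow no p under 0.25. Because the day 9 difference was 0, these differences could give no p under 0.5, so the test cannot decide between the arms. The days are different stages and not replicates. With so few peaks most summed counts depend on the window and on the score.

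With flanks of 50 kb ESCs had 11 peaks at the 7 loci and MEFs 13, and there were 6 with HDAC3-YF and 3 with FLAG at day 5 (a difference of 3), 3 and 3 at day 9, and 2 with FLAG at day 13. With flanks of 5 kb there were 4 in MEFs, so that ESC minus MEF was 0, and 0 in both arms at day 5 (a difference of 0) and at day 9 and with FLAG at day 13. With the upper 50% of each list by score there were 0 in ESCs and 1 in MEFs (ESC minus MEF -1), 1 with HDAC3-YF and 0 with FLAG at day 5, and 0 in both arms at days 9 and 13, so the day 13 difference was 0. With 14251 peaks from each list there were 3 in ESCs and 2 in MEFs, and ESC minus MEF turned to 1. Requiring 50% of the interval inside the window gave ESC minus MEF -1, since the Dab2 peak at the window limit drops out. Leaving out other gene bodies gave 0 in both arms at days 5 and 9, with a day 5 difference of 0. The day 13 difference of 4 between HDAC3-YF and FLAG was 3 without other gene bodies, 5 with flanks of 50 kb, and 4 with flanks of 5 kb, equal numbers, the 50% overlap and merging. With flanks of 5 kb the peak in Neil2 and the FLAG peak at Pdgfra drop out. There 4 genes were higher with HDAC3-YF, Pdgfra among them, where 3 were with flanks of 20 kb. At sites with both co-repressors there were 0 NCoR and 0 SMRT peaks at day 9, and 1 NCoR and 1 SMRT peak in ESCs, both at Sox7. This setting counts intervals found in both lists, which may not be separate calls. Merging overlapping peaks only gave 16 H3K27ac sites in place of 15. The causes of these changes were not tested beyond what the settings themselves remove. The unknown read depth limits what the absence of a peak can say, since a mark below the calling threshold and no mark look alike in a peak list.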

Other observations

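Outside the window of Sox17, 74.3 kb above its upper end, lay a site where all 4 co-repressor lists had a peak. It was singled out after its values were seen. It lies inside the long non-coding RNA gene Gm37323, near chr1:4571721-4571920. NCoR and SMRT shared an interval there at day 9, chr1:4571696-4571895, and another in ESCs, chr1:4571638-4571837. Each shared interval had the same score in its NCoR and SMRT lists, so these may not be separate calls. The share of sites with a peak in all 4 lists was not counted. H3K27ac peaks lay at the same place with HDAC3-YF at day 5 (score 6.96, with 2.3% of the list lower) and at day 13 (12.1, with 38.0% lower), and in ESCs (19.0, with 37.1% lower) and MEFs (8.62, with 12.9% lower). The FLAG list had none there at any of the 3 days, and the HDAC3-YF list had none at day 9. Over the genome 37.7% of the HDAC3-YF peaks at day 5 and 36.2% at day 13 overlapped no FLAG peak of that day.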
